A study of Mus musculus with 3 samples.

Results

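The sphingosine-1-phosphate (S1P) system was described by 10 genes in RNA precipitated from mouse hearts with an endothelial ribosome tag: the receptors S1pr1, S1pr2 and S1pr3, the exporter Spns2, the sphingosine kinases Sphk1 and Sphk2, the lyase Sgpl1, and the phosphatases Sgpp1, Plpp1 and Plpp3. The genes were taken from the deposited table by their symbols, and each of the 10 had a row among the 17583 genes listed. The table holds 3 libraries, 1 from each of 3 mice, of RNA that was bound to tagged ribosomes and pulled down from heart homogenates. Every mouse carried Cdh5-CreERT2, a tamoxifen-inducible Cre driven by the promoter of VE-cadherin, and Rpl22tm1.1Psam, an allele in which Cre exchanges the last exon of a ribosomal protein for a version with a hemagglutinin tag (EC-RiboTag mice). Only cells that had recombined this allele, and their later descendants, can contribute tagged ribosomes. The labels date the hearts to 7 days after coronary ligation, an operation that the RiboTag methods of the study do not mention, and they do not spell out the letters Rz of the sample titles. Elsewhere the study describes EC-RiboTag RNA taken a week after infarction from the remote zone (RZ) and from the border and infarct zones, so whether the values here stand for whole hearts or for the remote zone is not settled. The labels give no ages, and the study's methods describe adult mice of either sex. The libraries form a single group without input or hearts of a second condition, so every value is a level in the precipitated RNA. Neither an effect of infarction nor an enrichment over whole heart could be computed.

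S1P is a signaling lipid made inside cells by phosphorylation of sphingosine. In endothelial cells, the transporter SPNS2 carries it across the plasma membrane, and G protein–coupled receptors on the same or neighboring cells respond to it. S1P1, the product of S1pr1, couples to Gi proteins and is known for strengthening endothelial junctions and restraining sprouting, whereas S1P2 and S1P3 also couple to G12/13 and Gq proteins. The signal is ended by the lyase, which splits S1P irreversibly in the endoplasmic reticulum, and by phosphatases, which return it to sphingosine.

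The members include close relatives, so the sequences in which these resemble each other most are shown to let a reader see how reads of 72 bases can be assigned to a single gene. For each pair, every stretch of 72 coding bases within an exon of one gene was compared without gaps with every such stretch of the other (GRCm39). Bases in capitals differ from the partner, and each sequence is written 5′ to 3′ on the strand of its gene. The stretch of S1pr1 at chr3:115505627-115505698, on the minus strand, and that of S1pr3 at chr13:51573676-51573747, on the plus strand, encode the Asn-Pro-x-x-Tyr motif at the end of the last transmembrane helix and differ at 16 bases.
S1pr1: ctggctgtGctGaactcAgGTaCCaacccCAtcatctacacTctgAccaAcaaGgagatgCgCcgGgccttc
S1pr3: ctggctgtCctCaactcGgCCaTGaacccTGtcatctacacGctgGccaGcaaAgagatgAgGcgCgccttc

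S1pr1 and S1pr2 resembled each other most in the part of the coding sequence for the second extracellular loop, where chr3:115506002-115506073 and chr9:20879272-20879343, both on the minus strand, differ at 17 bases.
S1pr1: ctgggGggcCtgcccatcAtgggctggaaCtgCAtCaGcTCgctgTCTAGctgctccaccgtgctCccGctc
S1pr2: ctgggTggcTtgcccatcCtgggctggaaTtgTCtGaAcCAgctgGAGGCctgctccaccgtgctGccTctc

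The surface phosphatase genes Plpp3, at chr4:105065843-105065914, and Plpp1, at chr13:112993402-112993473, both on the plus strand, were most alike around the conserved lysine and arginine-proline of the first phosphatase motif and differ there at 23 bases.
Plpp3: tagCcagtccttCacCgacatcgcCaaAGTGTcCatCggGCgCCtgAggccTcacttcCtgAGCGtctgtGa
Plpp1: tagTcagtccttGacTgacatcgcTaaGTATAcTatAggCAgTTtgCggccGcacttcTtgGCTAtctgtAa

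The kinase genes Sphk2, at chr7:45361510-45361581 on the minus strand, and Sphk1, at chr11:116426094-116426165 on the plus strand, were most alike within the catalytic domain, with 19 differing bases.
Sphk2: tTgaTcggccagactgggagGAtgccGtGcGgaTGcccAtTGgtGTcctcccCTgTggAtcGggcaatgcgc
Sphk1: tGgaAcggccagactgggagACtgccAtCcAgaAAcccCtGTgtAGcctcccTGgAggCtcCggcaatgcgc

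Related members thus differed at 16 or more of 72 bases even where they were most alike. In the canonical transcripts, none of the windows of 72 bases of 9 members had an exact copy outside the gene, and for S1pr2 19 of 6323 windows (0.301%) did. No exon of a member shares bases with an exon of another gene on the same strand. Of the exonic bases of Sphk2, 38.1% lie opposite exons of Dbp and Rpl18, so its count relies on the strand-specific counting given in the study's methods. For the other members this share was at most 14.9%.

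S1pr1 was the most abundant member, and the receptors spread over the whole range of the group. Normalized counts, which are read counts divided by a size factor of the library, were 1903, 1935 and 1947 for S1pr1 in mice 1, 2 and 3, with a mean of 1928 ± 22.7 (SD, n = 3). S1pr2 had 280, 289 and 325, with a mean of 298.0 ± 23.8. S1pr3, a receptor best known from vascular smooth muscle and fibroblasts, had 48, 47 and 54, with a mean of 49.7 ± 3.8. The values of the 3 receptors did not overlap in any mouse. Mouse 3 had the highest count of each receptor gene, and for S1pr1 the range over mice was only 2.28% of the mean.

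S1pr1 (ENSMUSG00000045092) lies on chromosome 3 from 115504082 to 115508721, S1pr2 (ENSMUSG00000043895) on chromosome 9 from 20873657 to 20888077, and S1pr3 (ENSMUSG00000067586) on chromosome 13 from 51562675 to 51576833. In the canonical transcript of each, 1 of 2 exons carries the whole coding sequence. These transcripts are 3046, 6394 and 4463 bases long, and a longer transcript gives more reads per molecule. Genes were therefore compared by normalized count per kilobase of canonical transcript. On this scale S1pr1 had 633.1 ± 7.5 (SD, n = 3), which was above 98.8% of the 17475 genes with a length. S1pr2 had 46.6 ± 3.7, above 41.8% of genes, and S1pr3 had 11.1 ± 0.8, above 24.5% of genes.

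**Figure D1:**
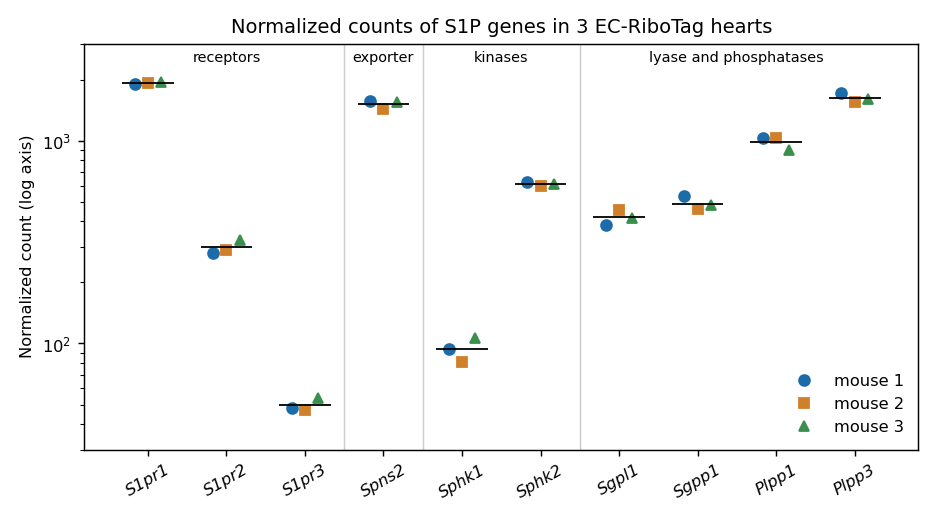
Normalized counts of the 10 genes in each mouse on a log axis (1 point a mouse, horizontal bars the mean of 3 mice), grouped by role. S1pr1, Plpp3 and Spns2 lie at or above 1435 in each mouse, and S1pr3 lies at or below 54.

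The exporter and the surface phosphatases followed S1pr1. Spns2 (ENSMUSG00000040447, chromosome 11, 72342464 to 72380730, minus strand), the transporter through which endothelial cells release S1P into lymph and blood, counted 1579 in mouse 1, 1435 in mouse 2 and 1552 in mouse 3 after normalization. Its level per kilobase was 446.2 ± 22.4 (SD, n = 3), above 95.3% of genes. Plpp3 (ENSMUSG00000028517, chromosome 4, 105014544 to 105089961, plus strand) encodes LPP3, a phosphatase of the cell surface that removes phosphate from S1P, lysophosphatidic acid (LPA) and phosphatidic acid. Its counts were 1724, 1555 and 1601, and its level per kilobase was 501.1 ± 26.9 (SD, n = 3). Plpp1 (ENSMUSG00000021759, chromosome 13, 112937326 to 113004428, plus strand), which encodes the related LPP1, had 1030, 1035 and 901, or 362.0 ± 27.8 per kilobase, with the lowest count in mouse 3. Plpp1 was below Plpp3 and Spns2 in every mouse.

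The kinases differed in level. Sphk2 (ENSMUSG00000057342, chromosome 7, 45358891 to 45367426, minus strand), which encodes the kinase found in nucleus, mitochondria and endoplasmic reticulum, had a normalized count of 625 in mouse 1, 599 in mouse 2 and 614 in mouse 3. Sphk1 (ENSMUSG00000061878, chromosome 11, 116421751 to 116427501, plus strand), which encodes the cytosolic kinase that moves to the plasma membrane on stimulation, had 94, 81 and 107. Per kilobase, Sphk2 had 172.7 ± 3.7 and Sphk1 24.9 ± 3.4 (SD, n = 3), which was above 72.1% and 33.5% of genes.

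The genes of intracellular S1P removal lay between these. Sgpl1 (ENSMUSG00000020097, chromosome 10, 60934421 to 60983482, minus strand), the lyase, counted 383 in mouse 1, 456 in mouse 2 and 416 in mouse 3, or 101.3 ± 8.9 per kilobase (SD, n = 3). Sgpp1 (ENSMUSG00000021054, chromosome 12, 75761023 to 75782503, minus strand), an S1P phosphatase of the endoplasmic reticulum, had 531, 458 and 481, or 143.1 ± 10.9 per kilobase. Sgpl1 was lowest and Sgpp1 highest in mouse 1, and the counts of both came within 2 of each other in mouse 2.

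By level per kilobase the order was S1pr1, Plpp3, Spns2, Plpp1, Sphk2, Sgpp1, Sgpl1, S1pr2, Sphk1 and S1pr3. In each of the 9 neighboring pairs of this order the difference exceeded the SDs of both genes, and each pair kept its order in all 3 mice. The order of undivided counts was the same, but with the length of all annotated exons of a gene in place of the canonical transcript Plpp1 came before Spns2 (230.5 ± 17.7 and 227.2 ± 11.4) and Sgpp1 before Sphk2 (85.2 ± 6.5 and 82.2 ± 1.8). Each of these differences was smaller than the larger SD of its pair.

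**Figure D2:**
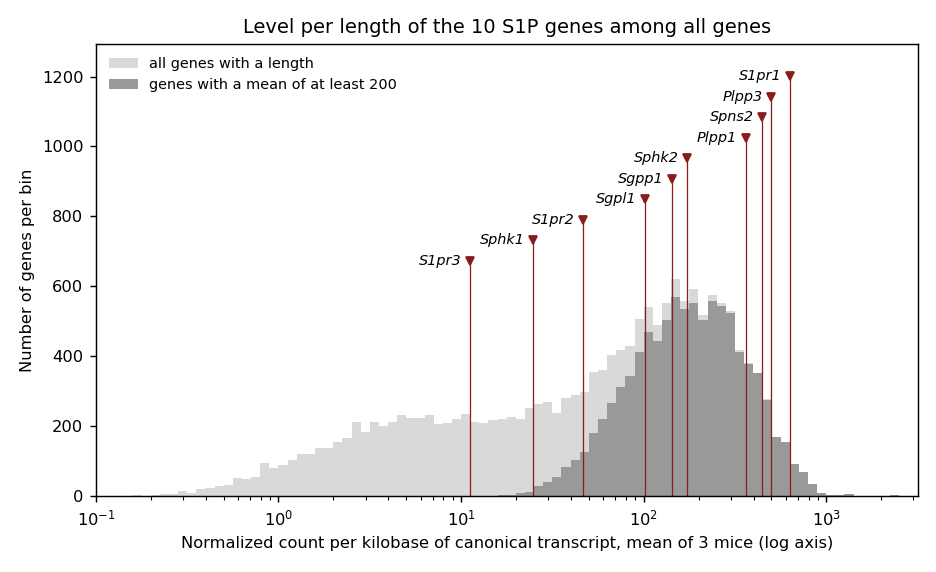
Histogram of the normalized count per kilobase of canonical transcript, mean of 3 mice, on a log axis, for all 17475 genes with a length (light) and for genes with a mean count of at least 200 (dark). Red lines mark the 10 genes, from S1pr3 at 11.1 to S1pr1 at 633.1.

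The median level of the 10 genes was 157.9 per kilobase. Among genes with a mean count of at least 200, the median was 176.3, and 4 of the 10 members (S1pr1, Plpp3, Spns2 and Plpp1) were at or above it, next to 27.3% of all genes with a length. A mean count of at least 200 was reached by 8 members, and S1pr3 and Sphk1 lay below it.

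Related genes were then compared by the log2 ratio of their levels per kilobase within each mouse. S1pr1 exceeded S1pr3 by a log2 ratio of 5.86, 5.91 and 5.72 in mice 1, 2 and 3, a mean of 5.83 ± 0.10 (SD, n = 3) or 57.0-fold. It exceeded S1pr2 by 3.83, 3.81 and 3.65, a mean of 3.77 ± 0.10 or 13.6-fold. S1pr2 was 4.19-fold above S1pr3. Sphk2 exceeded Sphk1 by a log2 ratio of 2.80 ± 0.18 (SD, n = 3) or 6.98-fold, and this ratio was smallest in mouse 3, at 2.61. The other ratios were small: Plpp3 exceeded Plpp1 1.39-fold, S1pr1 exceeded Spns2 1.42-fold and Sgpp1 exceeded Sgpl1 1.41-fold. The log2 ratio of Sgpl1 to Sgpp1 varied most, from -0.74 in mouse 1 to -0.28 in mouse 2. Each of the 7 ratios had the same sign in 3 of 3 mice, and the exact permutation test, which flips the signs of the ratios of single mice, gave a two-sided p = 0.25 for each (0.25 also after Benjamini-Hochberg adjustment over the 7 pairs). This is the smallest p that 3 mice allow, so the design cannot reach 0.05.

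The folds between members depend on the handling of length and of duplicate reads. The authors removed duplicates, which leaves room for about 1 read at each start position of a transcript. S1pr1 had an estimated 0.635 reads per base of its canonical transcript, Plpp3 0.503, Spns2 0.448 and Plpp1 0.362, next to a median of 0.177 and a 99th percentile of 0.738 among genes with a mean count of at least 200. S1pr3 and S1pr2 had 0.011 and 0.047. If starts fell evenly along the transcript, 0.635 distinct starts per base would correspond to 1.01 reads per base before removal. On that assumption, which was chosen after seeing the data, S1pr1 was 90.0-fold above S1pr3 and 21.1-fold above S1pr2. Without division by length S1pr1 was 38.9-fold above S1pr3 and 6.48-fold above S1pr2. With the length of all annotated exons these folds were 45.9 and 16.0. The fold of S1pr1 over Spns2 was 1.27 without length, 1.70 with the duplicate correction and 2.05 with all annotated exons.

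**Figure D3:**
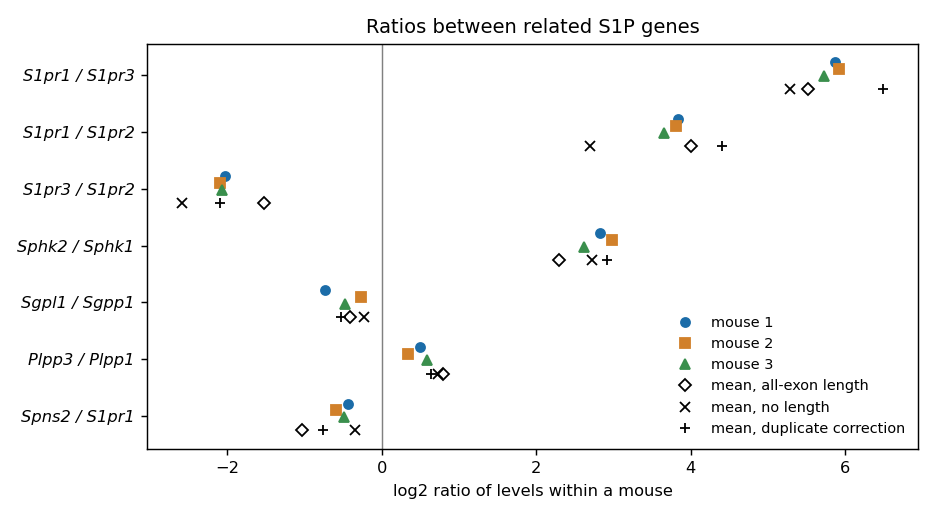
Log2 ratios of the levels of related genes within a mouse (colored points, per kilobase of canonical transcript, 1 point a mouse) and their means with other lengths or a correction for removed duplicates (black symbols). All values of a pair lie on the same side of 0. For the correction this was fixed in advance, because it keeps the order of levels per base within a mouse.

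The spread of the members between mice was near that of other genes. None of the 8 members with a mean count of at least 200 had a coefficient of variation over 20%, a spread that 8.0% of the 9358 genes of that level had, and none was over 10%, which 32.1% of these genes were. Their median was 6.49%, next to 7.37% for all genes of that level. The less abundant Sphk1 had 13.8% and S1pr3 7.62%. About 10.3% and 14.2% are expected from counting alone at the 94.7 and 49.9 reads estimated behind their means. S1pr1 varied by 1.18%, less than the 2.27% that counting alone would give, and Sphk2 by 2.13% against 4.03%. In all, 3 members varied less and 7 more than expected from counting, and of the latter Plpp1 stood highest above it, with 7.68% against 3.18%. Each of these values rests on an SD from 3 mice, which is imprecise.

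The libraries carried RNA of several cell types. The 10 endothelial markers lay between 460.8 (Emcn) and 809.4 (Eng) per kilobase, with a median of 688.5, close to the level of S1pr1. The 10 cardiomyocyte markers had a median of 565.2, from Ttn with 78.5 to Myl2 with 819.2. Removal of duplicates leaves room for about 1 read at each start position, so differences among levels this high can be compressed. The nearness of S1pr1 and these medians is therefore no measure of equal amounts of RNA. Medians were 79.9 for 7 fibroblast markers (Tcf21 18.2 to Lum 187.7), 47.1 for 8 markers of pericytes and smooth muscle (Myh11 19.8 to Rgs5 134.1), 25.7 for the 6 leukocyte markers listed (Cd79a 2.41 to Lyz2 72.6), 195.5 for 5 lymphatic markers (Pdpn 52.1 to Ccl21a 300.4) and 70.5 for 7 markers of erythroid cells and platelets (Gp9 2.63 to Hbb-bs 179.7). Each gene listed reaches at least 4 in a mouse, so no listed marker could be at 0 in every mouse. The leukocyte marker Cd3e was not listed. The summed level of the smooth muscle and pericyte markers was 374.8, 489.1 and 605.8 per kilobase in mice 1, 2 and 3, that of the fibroblast markers was 532.2, 568.8 and 724.6, and that of the lymphatic markers was 751.8, 888.6 and 965.7. Among the smooth muscle and pericyte markers, Tagln rose most, from 62.4 in mouse 1 to 204.7 in mouse 3. Rgs5 (131.2 and 122.3) and Kcnj8 (45.4 and 39.2) were lower in mouse 3 than in mouse 1, and the others were higher. The summed endothelial markers were 6487, 6339 and 6256, and the summed cardiomyocyte markers 5072, 4926 and 4711. The direction of the cardiomyocyte sum depends on the scale, since the undivided counts summed to 20679, 21339 and 24237. Its genes differed too: per kilobase, Ttn rose from 68.6 in mouse 1 to 94.8 in mouse 3, while Myl2 fell from 880.4 to 730.7. The 4 members highest in mouse 3 were S1pr1, S1pr2, S1pr3 and Sphk1, and the part of any of these cell types in their counts was not tested. The sums of the deposited counts were between 7149102 and 7268785, and the spacing of their whole numbers corresponds to between 6755000 and 7566000 reads. Fewer endothelial cells and less RNA per cell cannot be told apart in such samples.

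The other genes of S1P reception, carriage and breakdown spanned a wide range, from Apom to Aldh3a2, with a median of 66.7 per kilobase over the 8 listed. S1pr4, a receptor known from leukocytes, had normalized counts of 251, 200 and 200, or 90.9 ± 12.3 per kilobase (SD, n = 3), and exceeded both S1pr2 and S1pr3 on this scale in every mouse. It has 1 exon, which overlaps no exon of another gene, and its level per kilobase was above that of each of the 6 leukocyte markers listed. Its rankings over Lyz2 and S1pr2 depend on length, since its undivided mean count was 217.0, beside 217.3 for Lyz2 and 298.0 for S1pr2. Undivided, its mean still exceeded that of S1pr3 (49.7) and of the other listed leukocyte markers, of which Ptprc was highest with 146.0. Mfsd2b, the exporter of erythrocytes and platelets, had 21, 21 and 20 counts. Apom, the carrier of S1P on high-density lipoprotein, had 4, 1 and 0. The transporters Abca1 and Abcc1, which have been linked to S1P export, had 64.7 ± 11.9 and 68.7 ± 7.3 per kilobase, well below Spns2. Of the phosphatases, Plpp2 had 105.3 ± 17.0, and Sgpp2 had 4.77 ± 1.17 per kilobase. Aldh3a2, the aldehyde dehydrogenase that oxidizes the product of the lyase, had 357.8 ± 17.5, which was above Sgpl1 in every mouse. Of these 8 genes it alone was at or above the median of 176.3, next to 27.3% of all genes with a length. When the length of all annotated exons was used for genes and median alike, 2 of the 8 were. No share of all genes was computed for that length. The symbol S1pr5 was searched as well and matched no row, so no value is given for it.

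For genes on either side of S1P in the sphingolipid pathway, the count at or above the median of 176.3 per kilobase is again set beside the 27.3% of all genes with a length. Of 7 G protein alpha subunits that S1P receptors use, 6 were at or above it, led by Gnai2, a Gi subunit, with 834.4 ± 40.6 (SD, n = 3), and Gnai1 was lowest with 60.8 ± 6.7. Of 14 listed genes of ceramide synthesis, 7 were at or above it, from Sptssa, a small subunit of serine palmitoyltransferase, with 499.0 ± 33.5, down to Cers3, a ceramide synthase, with 2.59 ± 1.49. Of 13 listed genes of ceramide turnover, 8 were at or above it, or 6 when the length of all annotated exons was used for genes and median alike. The 27.3% does not apply to that length, for which no share was computed. The highest was Acer2, a ceramidase of the Golgi that releases sphingosine, with counts of 1971, 1731 and 2023 and 442.6 ± 36.1 per kilobase. The lowest was Sgms2, a sphingomyelin synthase, with counts of 63, 201 and 219.

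**Figure D4:**
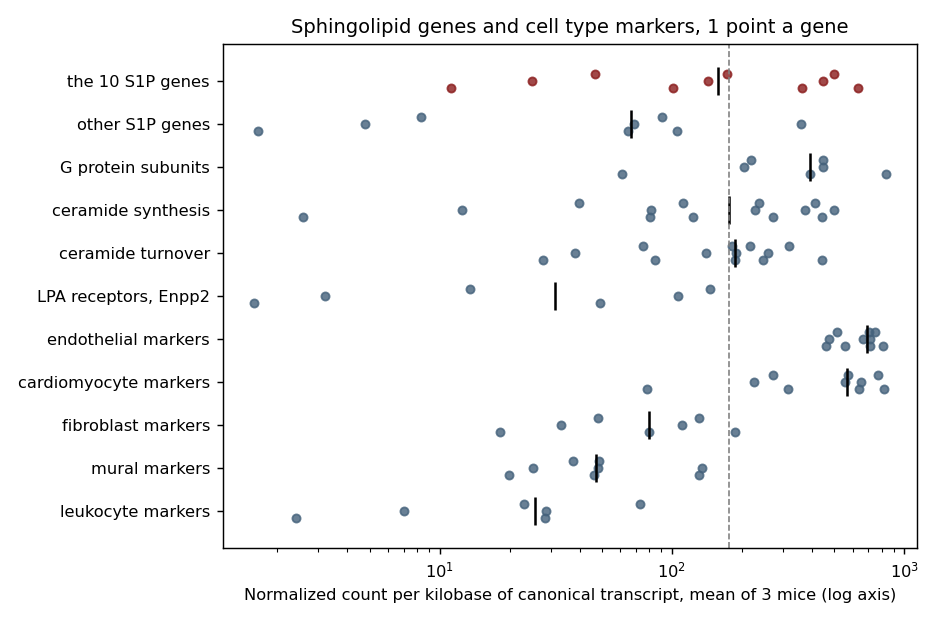
Normalized count per kilobase of canonical transcript, mean of 3 mice, on a log axis, with 1 point a gene, for the 10 genes (red), other sphingolipid gene lists and cell type markers (blue). Short black lines are list medians, and the dashed line is the median of genes with a mean count of at least 200, 176.3.

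The genes whose level per kilobase was most like that of S1pr1 over the 3 mice, by the mean absolute difference of log2 levels, were Itga6 (an integrin subunit; 0.01), Ssbp4 (0.01), Timp3 (a metalloproteinase inhibitor; 0.02), Ctnna1 (alpha-catenin; 0.03) and Podxl (a sialomucin; 0.03). This is a likeness of level in 3 libraries of a single condition, and none of these 5 genes was among the 5 most alike when the length of all annotated exons was used.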

How the data were processed

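RNA bound to tagged ribosomes was measured by single-end sequencing of 72 bases in 3 EC-RiboTag mice. The authors trimmed reads with Trimmomatic 0.39, aligned them with STAR 2.7.11a to mm39 (GRCm39), removed duplicates (Picard 3.1.1) and multi-mapping, ribosomal and mitochondrial reads, counted reads per gene on the correct strand (featureCounts 2.0.4) and normalized with DESeq2 1.36.0. The deposited values are a score: read counts after normalization, rounded to integers, so no count model was fitted. Each gene listed reaches at least 4 in a mouse.

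From these values, means, SDs, coefficients of variation and levels per kilobase were computed, with lengths from GENCODE vM39 (17475 of 17583 genes), which is newer than the annotation used for counting. Ratios within a mouse were tested by an exact sign-flip test. The worth of 1 read (0.977, 1.06 and 0.961 normalized counts) was estimated from the gaps and repeats that rounding leaves among values of 5 to 120, and tested on simulated data. SDs cover counting error and differences between mice together. Within each pair of libraries, the squared difference was on average 5.48 to 8.31 times the variance expected from counting, over 14441 genes. The labels call the libraries biological replicates.

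The members, pairs and gene lists were chosen with earlier results of these data known. Named genes are the members, all genes of the smaller S1P and LPA lists, the highest and lowest of the other lists, and the 5 genes most like S1pr1. Columns were matched to mice by sample title. Python 3.11.15, numpy 2.4.6, pandas 2.3.3, matplotlib 3.10.9, statsmodels 0.14.6 and BLAST 2.17.0 were used.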

Additional observations from a re-analysis of the deposited data

How the results depend on the processing

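The 7 ratios kept their direction in all 70 recomputations, which covered the length of all annotated exons, no length, scaling by trimmed means of log ratios (30% and 5% trimmed) or to equal totals (both cancel within a mouse), pseudocounts of 1 and 5, each mouse left out, and the correction for duplicates chosen after seeing the data. Because every ratio had the same sign in each mouse, leaving out a mouse could not reverse it. The correction for duplicates keeps the order of levels per base within a mouse, so it could not reverse a ratio either. The scalings, the left-out mice and this correction are therefore no check of direction. With 2 mice the smallest p is 0.5. With each mouse left out, the log2 ratio of S1pr1 to S1pr3 lay between 5.79 and 5.89 and that of Sgpl1 to Sgpp1 between -0.61 and -0.38. All 60 levels per kilobase recomputed with other scalings, with the median or without a mouse stayed within 1 SD. With 3 mice, taking the median or leaving out a mouse cannot move a level by 1 SD. Only the other scalings could have done so. With the length of all annotated exons, 6 of the 10 members kept their place in the order, and 0 of the 5 genes most like S1pr1 were shared. The other settings left all 10 places as they were. Of these, only leaving out the division by length could have moved a place. All neighbors kept their order in each mouse, which scalings, left-out mice, the median and the correction for duplicates cannot change. The number of members with a coefficient of variation over 20% was 0 under every alternative. Of the 48 other sphingolipid and LPA genes listed, 22 were at or above the median level, next to 27.3% of all genes with a length. With the length of all annotated exons 23 were, and no share of all genes was computed for that length. The counts with the canonical length and with all exons were 8 and 6 for ceramide turnover, 0 and 2 for LPA, and 1 and 2 for the other S1P genes. No paired analysis was possible because the mice form a single group. Counting limits the precision of S1pr3 and Sphk1, and S1pr1 and Plpp3 stand at 0.635 and 0.503 of the about 1 read per start position that the removal of duplicates leaves.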

Other observations

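LPA is a lysophospholipid related to S1P, is made outside cells by autotaxin (Enpp2), and is removed by the same surface phosphatases. Lpar6, a receptor that couples to G12/13 proteins, was the highest of its receptors, with normalized counts of 903, 778 and 691 in mice 1, 2 and 3, or 146.4 ± 19.7 per kilobase of canonical transcript (SD, n = 3). Lpar4 followed with 451, 497 and 413, or 106.4 ± 9.9. Lpar1 had 50, 38 and 58, Lpar2 had 15, 16 and 25, and Lpar3 had 5, 5 and 2. Lpar6 and Lpar4 were thus above S1pr2 and S1pr3 per kilobase. At or above the median of 176.3 were 0 of the 6 genes listed, next to 27.3% of all genes with a length. When the length of all annotated exons was used for genes and median alike, 2 of 6 were. The share of all genes was not computed for that length. Enpp2 varied more, with 212, 177 and 313 counts and a coefficient of variation of 30.2%. The symbol Lpar5 matched no row.

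The spread of S1pr1 between mice, 1.18%, was below the 2.27% that counting alone gives for independent reads. Its 0.635 reads per base were the most among the 10 genes. Sphk2 (2.13% and 4.03%) and S1pr3 (7.62% and 14.2%) were below counting at 0.173 and 0.011 reads per base. An SD from 3 mice is imprecise, so a value below counting is no sign of a smaller true spread. The part of duplicate removal in these spreads was not tested.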
